A study of Mus musculus with 12 samples.

Results

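The Hox genes encode homeodomain transcription factors that set the identity of cells along the head-to-tail axis. They were examined here as 38 listed protein-coding genes in 4 clusters: HoxA on chromosome 6 (10 genes), HoxB on chromosome 11 (10), HoxC on chromosome 15 (9) and HoxD on chromosome 2 (9). A peak of open chromatin was counted as a Hox peak when a listed Hox gene was the protein-coding gene nearest to its midpoint, at most 100 kb away and at distance 0 inside the gene. Of 99096 regions formed by joining the overlapping peaks of all lists, 54 were Hox regions.

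Accessible chromatin had been measured by ATAC-seq, in which a transposase cuts open DNA, in mouse embryos at embryonic day 7.5. Embryos were homozygous for FoxA2 fused to tagRFP at its own locus, either FoxA2-WT-tagRFP (WT) or FoxA2-deltaHx-tagRFP (dHx), whose FoxA2 lacks 10 amino acids of an alpha helix. Both lines were on a C57Bl6/J x CD-1 background. About 10 embryos, not sexed and without their extraembryonic part, were pooled for a sort into RFP High, Middle and Negative cells, so every group, Negative included, carried the tagged allele. The High gate lay above the signal of heterozygous cells, and the gates select cells by FoxA2 level and not by any Hox gene. Each library was made from 2000 to 5000 cells. The 12 samples formed 6 groups of 2 and each group was deposited as 1 peak list from its pooled samples. There was therefore no replicate value and no test between groups. The 95% intervals given in brackets are exact binomial ones (Clopper-Pearson) and hold only the error of counting.

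Within each cluster the genes are transcribed in 1 direction and ordered by paralogue group, numbered 1 at the 3′ end to 13 at the 5′ end. Genes of low number are switched on first, in the posterior part of the gastrulating embryo, and genes of high number follow later and nearer to the tail. Silent Hox clusters are known for wide domains of Polycomb-bound chromatin.

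Promoter sequences are given first for the Hox genes whose promoter window, 250 bases before to 50 after the start of transcription in RefSeq (GRCm38.p6, the assembly of mm10), carried a peak in both Negative lists and in neither High list. These were Hoxb1 (chr11:96365508-96365807, plus strand) and Hoxd1 (chr2:74762730-74763029, plus strand). A window of Hoxd11 (chr2:74682073-74682372, plus strand), which carried a peak in dHx Negative, was added after the values were seen because it holds the same motif as Hoxb1. Capitals mark TGATNNAT on either strand, the form bound by HOX proteins together with their partner PBX, and the other letters are lower case.
Hoxb1: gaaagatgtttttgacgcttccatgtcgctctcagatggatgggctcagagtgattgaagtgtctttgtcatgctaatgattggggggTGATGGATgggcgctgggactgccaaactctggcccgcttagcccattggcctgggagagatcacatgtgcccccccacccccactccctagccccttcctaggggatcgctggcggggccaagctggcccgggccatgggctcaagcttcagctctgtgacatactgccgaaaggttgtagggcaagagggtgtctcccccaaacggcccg
Hoxd1: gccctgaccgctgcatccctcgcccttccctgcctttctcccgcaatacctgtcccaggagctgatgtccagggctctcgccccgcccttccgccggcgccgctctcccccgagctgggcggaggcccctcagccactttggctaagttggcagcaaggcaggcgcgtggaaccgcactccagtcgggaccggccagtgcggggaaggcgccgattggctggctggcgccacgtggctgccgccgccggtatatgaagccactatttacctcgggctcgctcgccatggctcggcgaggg
Hoxd11: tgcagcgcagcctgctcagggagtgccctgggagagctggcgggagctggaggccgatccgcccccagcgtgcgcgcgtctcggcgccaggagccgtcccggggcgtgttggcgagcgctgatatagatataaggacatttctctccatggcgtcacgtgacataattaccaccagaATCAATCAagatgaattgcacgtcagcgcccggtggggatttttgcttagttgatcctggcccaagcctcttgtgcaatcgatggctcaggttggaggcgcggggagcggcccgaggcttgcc

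Hoxb1, a group 1 gene known for its role in the hindbrain, is also known to activate itself through PBX-HOX sites. Its window held 1 match, TGATGGAT, at positions 89 to 96 counted from the 5′ end of the window. The Hoxd11 window held 1 match on the reverse strand, ATCAATCA, at positions 178 to 185, and the Hoxd1 window held none. Promoter entries were present for 22 of the 38 genes, with 24 windows (HoxA 9 genes, HoxB 3, HoxC 1, HoxD 9). TGATNNAT occurred in 4 of the 24 Hox windows (16.7%, 4.74 to 37.4), those of Hoxa2, Hoxb1, Hoxb8 and Hoxd11. It occurred in 7.45% of 21262 protein-coding windows, a share inside that interval. TGTTTNC, a core form of the site bound by FoxA factors, occurred on either strand in 3 Hox windows (12.5%), those of Hoxa2, Hoxd10 and the other window of Hoxd11, and in 18.1% of all windows. TTTATGG, bound by CDX factors, occurred in the Hoxd4 window (4.17%) and in 2.26% of all. CCAAT and TATAAA were scanned as well. CCAAT occurred in 15 Hox windows (62.5%) and in 38.2% of all, and TATAAA in 4 (16.7%) and in 12.6% of all. In none of the Hox windows did a TGATNNAT match overlap a match of another of these motifs.

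Few of the matched Hox promoter windows held a peak. Of the 24, WT High had a peak over 1 (Hoxd9), WT Middle over none and WT Negative over 4 (Hoxb1, Hoxb4, Hoxd1 and Hoxd8). The dHx High list had a peak over 1 (Hoxd10), dHx Middle over none and dHx Negative over 3 (Hoxb1, Hoxd1 and Hoxd11). Among all protein-coding windows the share with a peak was 50.2%, 45.8%, 47%, 52%, 46.8% and 51.3% in WT High, Middle and Negative and the dHx lists in that order. The highest Hox share, 16.7% in WT Negative, had an interval of 4.74 to 37.4%. A count of 0 of 24 allows a share of up to 12.5% when 3 counts are taken as the limit, and up to 14.2% by the exact interval. Most HoxB and HoxC genes have no window here. Within 500 bp of the 5′ end of the gene record, which all 38 genes have, a peak lay at 3, 1 and 10 genes in WT High, Middle and Negative and at 2, 2 and 6 in dHx. The share of all genes with such a peak was not counted, so these numbers have no background beside them. The 10 in WT Negative included Hoxb2, Hoxb7, Hoxc5, Hoxc10 and Hoxc11, and Hoxc13 was among them in all 6 lists. Base composition of the Hox windows was near that of all windows, with a median of 14.5 CpG dinucleotides against 13 and a median GC content of 57.7% against 56.3%. The 7 Hox windows with a peak in any list held a median of 20 CpG dinucleotides (range 6 to 29) and the 17 without held 13 (4 to 45). The median ratio of observed to expected CpG went the other way, 0.593 with a peak and 0.657 without.

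**Figure D1:**
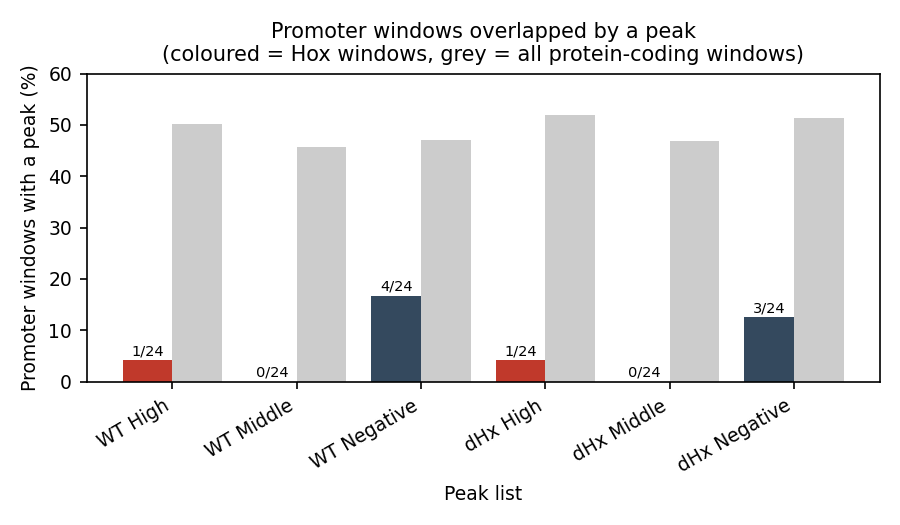
Share of promoter windows (%) overlapped by a peak in each of the 6 lists, for the 24 Hox windows (coloured by RFP level, with counts) and for all 21262 protein-coding windows (grey). Between 45.8 and 52% of all windows had a peak in a list, while at most 4 of the 24 Hox windows did.

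Across the clusters, open chromatin was counted mainly in FoxA2-negative cells. The WT High list held 7 Hox peaks, WT Middle 10 and WT Negative 27. The dHx High list held 5, dHx Middle 7 and dHx Negative 35. In both genotypes the Negative list stood apart from High and Middle, which lay close together. As a share of the list, Hox peaks made up 0.0153% (0.00616 to 0.0316) of WT High, 0.0205% (0.00983 to 0.0377) of WT Middle and 0.0682% (0.0450 to 0.0993) of WT Negative. In dHx the shares were 0.0135% (0.00437 to 0.0314), 0.0179% (0.00719 to 0.0369) and 0.0694% (0.0484 to 0.0965). The intervals of the Negative lists overlapped no interval of a High or Middle list. A region open in fewer cells and a region less open in each cell cannot be told apart in sorted bulk samples.

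**Figure D2:**
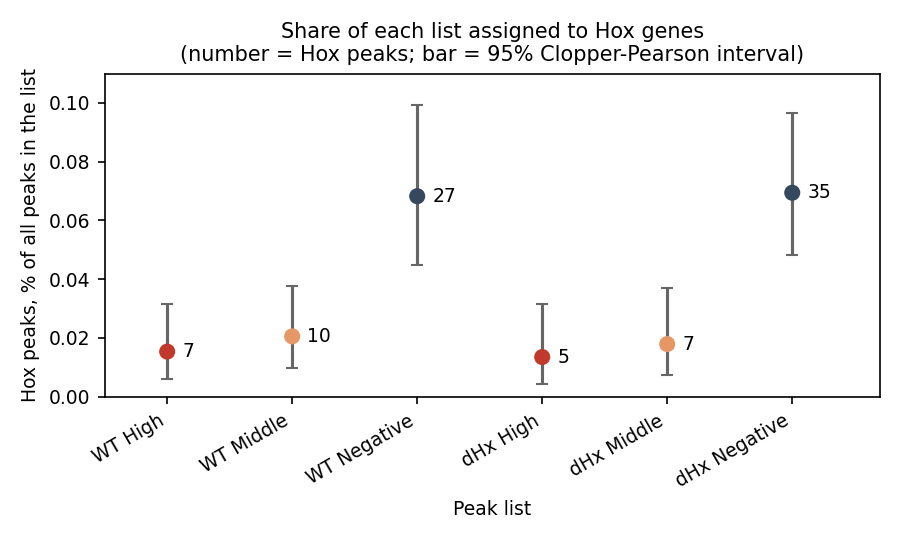
Hox peaks as a share (%) of all peaks in each of the 6 lists, with 95% Clopper-Pearson intervals for counting error and the number of Hox peaks beside each point. Both Negative lists (27 and 35 peaks) lie above the 4 RFP-positive lists (5 to 10).

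List size and depth differed between groups. The lists held 45689 (WT High), 48761 (WT Middle), 39569 (WT Negative), 37129 (dHx High), 39121 (dHx Middle) and 50424 (dHx Negative) peaks. The background pileup fitted to the authors' scores, a stand-in for depth, was 0.879, 1.496, 1.08, 0.476, 0.786 and 1.57 in the same order. In WT, the Middle list had more peaks and a higher background than Negative and fewer Hox peaks. In dHx, the Negative list had the most peaks and the highest background. With lists of about equal length the Hox counts were 5, 8 and 27 in WT and 5, 7 and 27 in dHx.

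Most Hox peaks of the Negative lists were weak. Ranked by score within its own list, with percentile 100 the strongest, the median Hox peak stood at percentile 17.0 in WT Negative and percentile 35.3 in dHx Negative. In WT High, WT Middle, dHx High and dHx Middle, with 5 to 10 Hox peaks each, the medians were at percentiles 49.0, 37.7, 62.3 and 54.2. At the lowest score of the list stood 7 of 27 Hox peaks in WT Negative, against 10.9% of all its peaks, and 7 of 35 in dHx Negative, against 9.49%. Of the Hox peaks, 7 lay above the median score of their list in each Negative list, against 3 and 4 in WT High and Middle and 3 and 4 in dHx. With a score of at least 5 the counts were 4, 5 and 10 in WT High, Middle and Negative and 3, 5 and 15 in dHx. The median width of Hox peaks was 362 bp in WT Negative (426 bp for all peaks) and 351 bp in dHx Negative (420 bp). Both WT RFP-positive lists and dHx Middle also had narrower Hox peaks than the whole list, while in dHx High they were wider (568 bp against 460 bp).

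Peaks sharing at least 1 bp were matched between lists to ask which Hox regions were open at 1 RFP level and not at another. Of the 27 WT Negative Hox peaks, 23 had no WT High peak (85.2%, 66.3 to 95.8), against 41% of all WT Negative peaks. In the other direction 3 of 7 WT High Hox peaks had no WT Negative peak (42.9%, 9.90 to 81.6), against 49%. Against WT Middle, 22 of the 27 were absent (81.5%, 61.9 to 93.7; all peaks 39.7%), and 5 of 10 WT Middle Hox peaks had no WT Negative peak (50%, 18.7 to 81.3; all peaks 50.9%). The Negative-side shares lay above the share of the whole list, and the shares on the RFP-positive side did not depart from theirs beyond counting error. With 7 and 10 Hox peaks in WT High and Middle, most of the 27 could have no partner wherever the peaks lay. The Negative-side shares thus largely restate the difference in counts and are not a separate result. Hox peaks and all peaks were not matched on score here. WT Negative Hox peaks without a WT High peak had a median percentile of 17.0, against 58.6 for the shared ones. Against WT Middle the medians were 17.0 and 47.9.

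The dHx lists showed the same arrangement. Of the 35 dHx Negative Hox peaks, 32 had no dHx High peak (91.4%, 76.9 to 98.2), against 54.4% of all dHx Negative peaks, and 29 had no dHx Middle peak (82.9%, 66.4 to 93.4), against 52.8%. Of the 5 dHx High Hox peaks, 2 had no dHx Negative peak (40%, 5.27 to 85.3; all peaks 38.9%), and of the 7 in dHx Middle 1 had none (14.3%, 0.361 to 57.9; all peaks 39.2%). Scores were again not matched. The median percentile of dHx Negative Hox peaks was 35.3 without a dHx High peak and 84.4 with one, while against dHx Middle it was 35.3 for both. Comparisons that share a Negative list are not independent of each other. With 5 and 7 Hox peaks in dHx High and Middle, most of the 35 could again have no partner, so these shares too largely restate the counts.

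**Figure D3:**
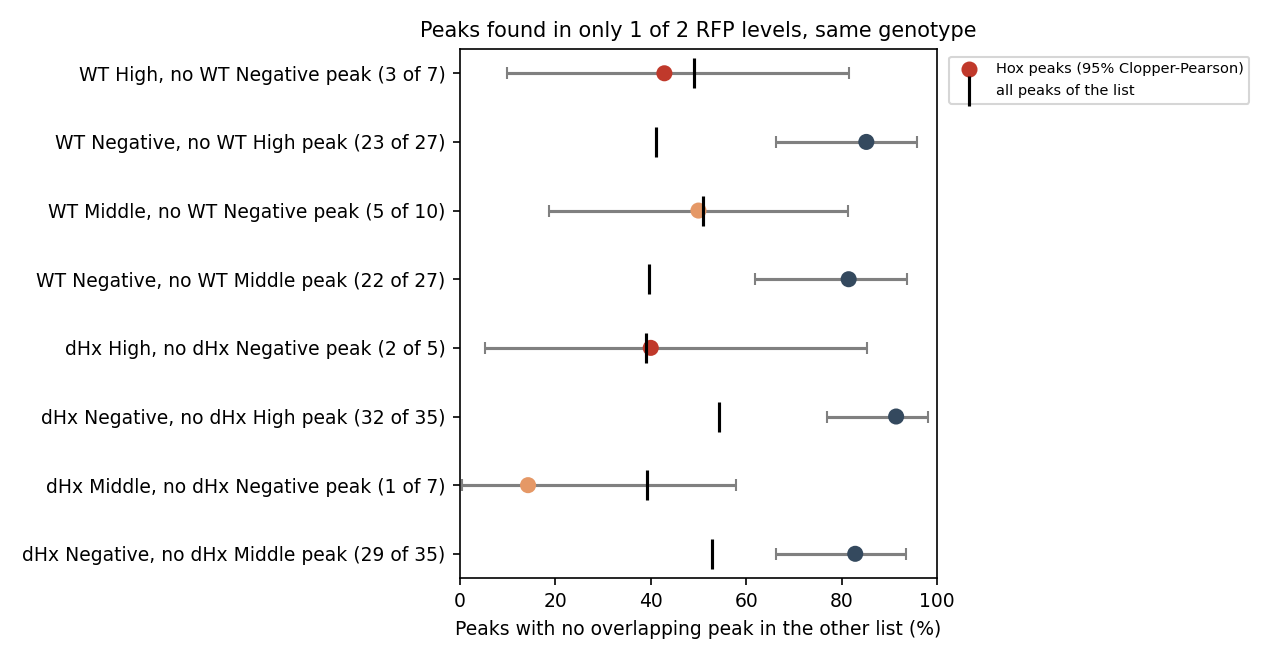
Share of Hox peaks (points, with 95% Clopper-Pearson intervals) and of all peaks (black ticks) that had no overlapping peak in the other RFP level of the same genotype. The 4 Negative points lie at 81.5 to 91.4%, with intervals above their ticks, while the intervals of the 4 RFP-positive points hold theirs. The low number of Hox peaks in the RFP-positive lists keeps the Negative points high wherever the peaks lie. Hox peaks and all peaks were not matched on score.

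By gene, 15 of the 19 listed genes with a peak in WT High or WT Negative had more in Negative, 2 had more in High (Hoxa10 and Hoxd9) and 2 had equal numbers. Among all genes with a peak in either list, 26.5% had more in WT Negative and 40% more in WT High. For WT Middle the numbers were 14 of 19 with more in Negative and 3 with more in Middle (Hoxa11, Hoxb9 and Hoxc13), against 26.9% and 40.5% of all genes. In dHx, 18 of 20 had more in Negative than in High and 2 had more in High (Hoxd8 and Hoxd10), against 41.9% and 24% of all genes. Against dHx Middle it was 16 of 19, with 1 the other way (Hoxb13), against 42.8% and 24%. In WT the listed genes thus stood against the direction of the whole list. With a score of at least 5 the genes with more in Negative numbered 6 against WT High, 4 against WT Middle, 8 against dHx High and 8 against dHx Middle, and those with more in the RFP-positive list 1, 0, 0 and 2. Shares over all genes were not counted at that score, so these numbers cannot be set against a background.

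Of the 38 genes, 13 had no peak in any list, against 15.5% of all genes: Hoxa2, Hoxa5, Hoxa6, Hoxa7, Hoxa13, Hoxb5, Hoxb6, Hoxb8, Hoxc8, Hoxc9, Hoxc12, Hoxd12 and Hoxd13. The sequence nearest to a gene is short where genes are crowded (2.9 kb for Hoxa5, 3.9 kb for Hoxa6). With peaks counted for every gene up to 100 kb away each of the 38 had a peak. Under that rule 1 peak counts for many genes of a cluster, and the share over all genes was not counted. Another 13 had peaks in a Negative list and in no RFP-positive list (2.92% of all genes), and 10 of these had them in both Negative lists (0.69% of all genes): Hoxb2, Hoxb3, Hoxb4, Hoxc4, Hoxc5, Hoxc10, Hoxc11, Hoxd3, Hoxd4 and Hoxd11. Only Hoxa10, Hoxa11, Hoxd9 and Hoxd10 had peaks in RFP-positive lists alone, 1 peak each and each in a single list (8.36% of all genes had peaks there alone). Hoxb1, Hoxc13 and Hoxd1 had peaks in all 6 lists, as did 50.5% of all genes.

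**Figure D4:**
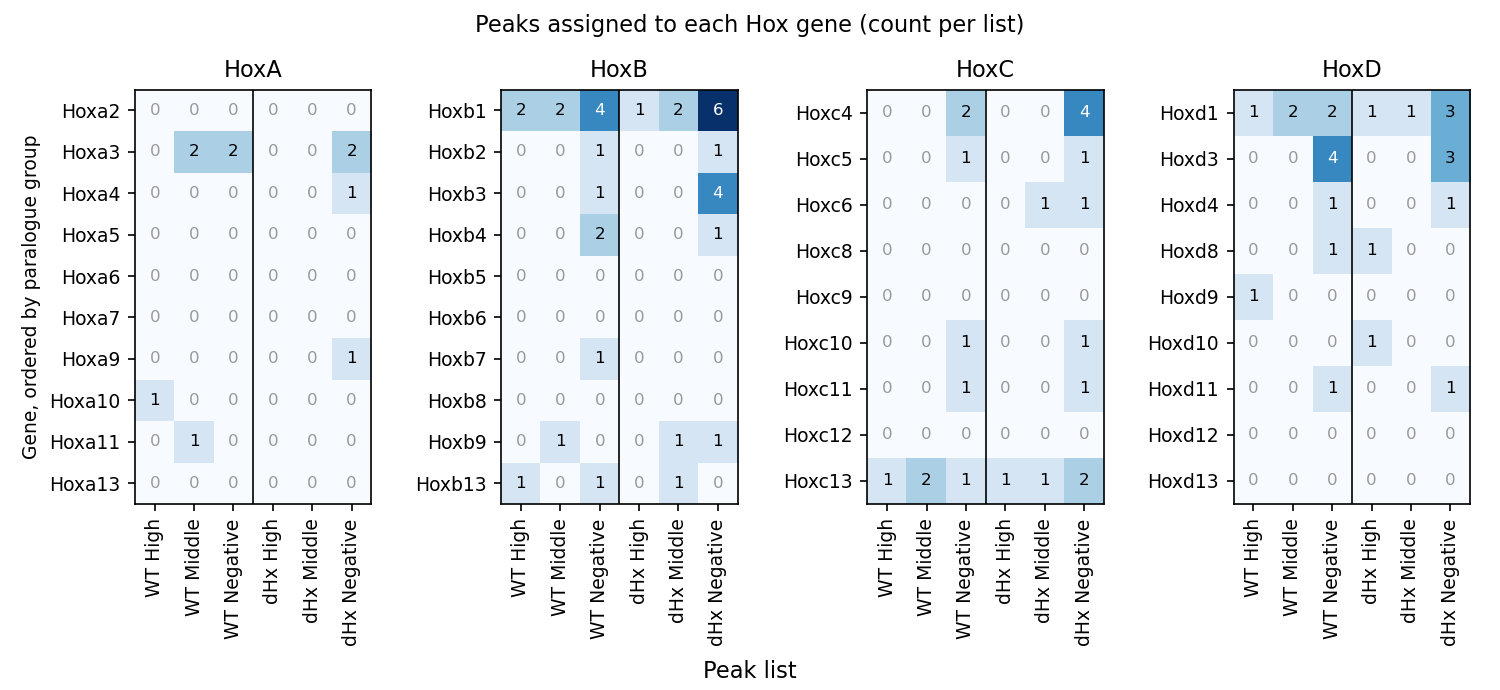
Number of peaks assigned to each of the 38 Hox genes in each of the 6 lists, by cluster and ordered by paralogue group, with darker cells for higher counts. Counts are highest in the Negative columns of genes with low paralogue numbers (up to 6 for Hoxb1), and 13 genes are at 0 throughout.

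The low-numbered end of the clusters held most of the Negative peaks. Paralogue groups 1 to 4, with 11 of the listed genes, held 19 of 27 Hox peaks in WT Negative (70.4%, 49.8 to 86.2) and 26 of 35 in dHx Negative (74.3%, 56.7 to 87.5). Groups 5 to 8, also 11 genes, held 3 and 2, and groups 9 to 13, 16 genes, held 5 and 7. The sequence nearest to a listed gene amounted to 319 kb for groups 1 to 4, 79.6 kb for groups 5 to 8 and 367.7 kb for groups 9 to 13. Per 100 kb of that sequence, WT Negative held 5.96 peaks in groups 1 to 4, 3.77 in groups 5 to 8 and 1.36 in groups 9 to 13. In dHx Negative the densities were 8.15, 2.51 and 1.90. In WT High they were 0.940, 0 and 1.09, and in dHx High 0.627, 1.26 and 0.544, from 7 and 5 peaks in all. In WT Middle they were 1.88, 0 and 1.09 and in dHx Middle 0.940, 1.26 and 0.816, from 10 and 7 peaks. Groups 1 to 4 thus had the highest density in both Negative lists and in WT Middle, and not in the other 3 lists.

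Clusters differed as well. HoxB held 3, 3 and 10 peaks in WT High, Middle and Negative and 1, 4 and 13 in dHx. HoxD held 2, 2 and 9 in WT and 3, 1 and 8 in dHx, and HoxC held 1, 2 and 6 in WT and 1, 2 and 10 in dHx. HoxA held 1, 3 and 2 in WT and 0, 0 and 4 in dHx, the fewest in both Negative lists and level with HoxB in WT Middle. In WT the HoxA count in Negative did not exceed that in Middle. The HoxA counts depended on assignment: with peaks counted for every gene up to 100 kb away they were 6, 11 and 10 in WT and 9, 6 and 20 in dHx. With lists of about equal length HoxB held 8 peaks in dHx Negative. With a score of at least 5, HoxB held 2, 1 and 2 in WT, with no excess in Negative over High, and 1, 2 and 4 in dHx. HoxC then held 1, 1 and 2 in WT and 1, 2 and 4 in dHx, and HoxD 1, 2 and 5 and 1, 1 and 4. Per 100 kb of sequence nearest to its listed genes, HoxD was the densest in WT Negative (6.89) and dHx Negative (6.12), HoxB followed (4.23 and 5.50), and HoxA had 1.59 and 3.17 and HoxC 2.19 and 3.66.

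**Figure D5:**
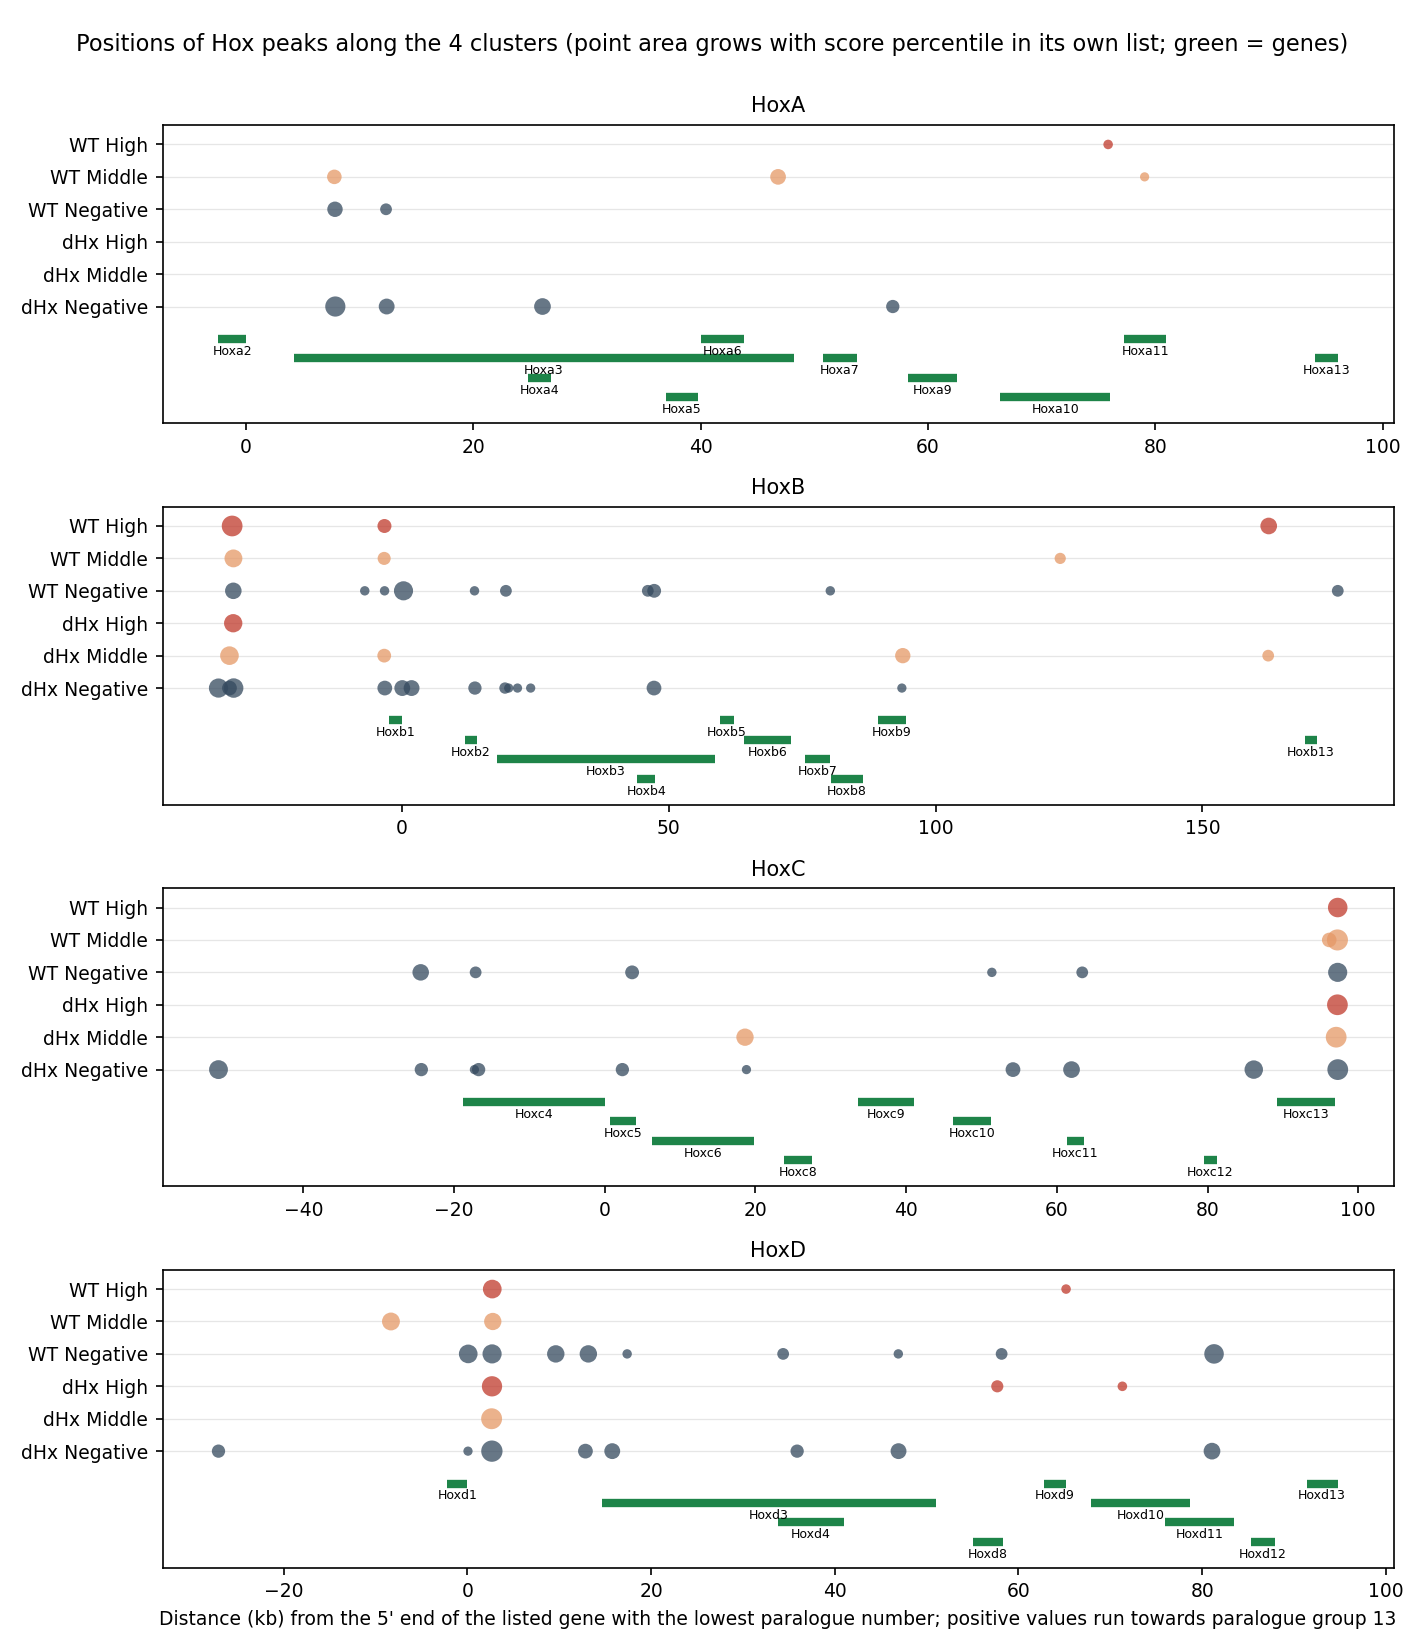
Midpoints of the Hox peaks of each list along the 4 clusters, as distance in kb from the 5′ end of the listed gene with the lowest paralogue number, with point area growing with the score percentile in the own list and genes in green. Negative peaks crowd around the genes of groups 1 to 4, and 3 positions, 1 each in HoxB, HoxC and HoxD, are filled in all 6 lists.

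The listed group 1 genes, Hoxb1 and Hoxd1, held 6 peaks in WT Negative and 9 in dHx Negative, and the group 3 genes 7 and 9. Hoxb1 had 2, 2 and 4 peaks in WT High, Middle and Negative and 1, 2 and 6 in dHx, the highest total of HoxB. Hoxd1, its paralogue, had 1, 2 and 2 in WT and 1, 1 and 3 in dHx, the highest total of HoxD. Both counts were highest in dHx Negative, and for Hoxd1 WT Middle equalled WT Negative. The dHx Negative list was also the longest, and with lists of about equal length its HoxB peaks fell from 13 to 8. Its Hoxb1 peaks at chr11:96396968-96397600 and chr11:96397971-96398163 lay in 1 region, which was open in all 6 lists. The Hoxb1 promoter region (chr11:96365173-96365838) held a peak at percentile 69.3 in WT Negative and percentile 43.0 in dHx Negative. The Hoxd1 promoter region (chr2:74762717-74763057) held one at percentile 65.3 in WT Negative and at the lowest score of the list, percentile 4.74, in dHx Negative. Both regions overlap the printed promoter windows, and none of the 4 RFP-positive lists had a peak at either.

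Group 3 genes take part in patterning the hindbrain, pharyngeal arches and neck. Hoxd3 had no peak in the 4 RFP-positive lists, 4 in WT Negative and 3 in dHx Negative. Hoxb3 had none in the RFP-positive lists, 1 in WT Negative and 4 in dHx Negative. Of the 4 dHx Negative peaks of Hoxb3, 3 stood at the lowest score of that list. Hoxa3 had 0, 2 and 2 peaks in WT High, Middle and Negative and 0, 0 and 2 in dHx, the highest total of HoxA. Hoxa3 was the one listed group 3 gene with peaks in an RFP-positive list. Its region chr6:52172495-52172896 was in WT Middle (percentile 33.9), WT Negative (39.8) and dHx Negative (78.9), the last being the strongest HoxA peak. The records of the group 3 genes are long and overlap group 4 genes, and a peak inside both was given to the shorter gene.

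Group 4 genes act in the posterior hindbrain and the cervical region. Hoxb4 had no peak in the RFP-positive lists, 2 in WT Negative and 1 in dHx Negative. Hoxc4 likewise had none there, 2 in WT Negative and 4 in dHx Negative. Hoxd4 had 1 peak in each Negative list alone, at 2 positions that did not overlap (the WT one, chr2:74728203-74728993, was the widest HoxD peak at 791 bp), and Hoxa4 had 1 peak, in dHx Negative. The region at the 5′ end of Hoxb4 (chr11:96318087-96318888) held a peak at percentile 29.2 in WT Negative and percentile 35.3 in dHx Negative.

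Among the posterior genes, which pattern the trunk and limbs, Hoxc13, known for hair and nails, had the highest total of HoxC, with 1, 2 and 1 peaks in WT High, Middle and Negative and 1, 1 and 2 in dHx. Hoxd11, of the forearm and kidney, had 1 peak in each Negative list, in 1 shared region inside the gene (chr2:74681496-74682271) at percentile 72.9 in WT and percentile 49.4 in dHx. That was the highest percentile of any Hox peak in WT Negative. The widest HoxA peak, 560 bp, lay beside Hoxa9 in dHx Negative (chr6:52221455-52222014), and the widest HoxC peak, 764 bp, at Hoxc13 in dHx Middle (chr15:102920640-102921403). The RFP-positive-only peaks of Hoxa10 and Hoxd9 in WT High and of Hoxd10 in dHx High stood at the lowest score of their lists, as did that of Hoxa11 in WT Middle.

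Regions were followed over all 6 lists. Of the 54 Hox regions, 11 held a peak in both Negative lists and in no High or Middle list (20.4%, 10.6 to 33.5), against 2.78% of all regions. None of the 54 held a peak in High and Middle of both genotypes and in neither Negative list, which allows a share of up to 5.56% with 3 counts as the limit and up to 6.60% by the exact interval, against 2.08% of all regions. In total 37 Hox regions (68.5%, 54.4 to 80.5) were in a Negative list and no RFP-positive list, against 20.1%. A further 10 (18.5%, 9.25 to 31.4) were in an RFP-positive list and no Negative list, against 40.1%. In a single list were 35 (64.8%, 50.6 to 77.3), against 45.3% of all regions. Hox regions and all regions were not matched on score. These shares also follow in part from the low Hox counts of the High and Middle lists. With a score of at least 5, 24 Hox regions were left, of which 3 were Negative-only in both genotypes. The share over all regions was not counted at that score.

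The 11 regions lay in all 4 clusters: 4 in HoxB, 4 in HoxD, 2 in HoxC and 1 in HoxA. Besides the Hoxb1, Hoxd1, Hoxb4 and Hoxd11 regions they were 1 inside Hoxa3 (chr6:52176903-52177418), 1 inside Hoxb2 (chr11:96351953-96352270), 1 inside Hoxb3 (chr11:96346064-96346614), 1 inside Hoxc4 (chr15:103034651-103035563), 1 outside it by 5.67 kb (chr15:103042296-103042750), 1 inside Hoxd3 (chr2:74715878-74716223) and 1 outside it by 1.61 kb (chr2:74749466-74750298). All but the Hoxd11 region belong to groups 1 to 4. Exons and introns were not told apart, because the gene table gives only the ends of each gene.

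Open in all 6 lists were 3 Hox regions (5.56%, 1.16 to 15.4), against 13.6% of all regions. The first lay 29.3 kb beyond the 3′ end of Hoxb1 (chr11:96396924-96398211), with Skap1 the nearest other gene at 67.0 kb, and stood between percentiles 47.9 and 84.2 of its lists. It held the widest Hox peak, 1288 bp in WT High. The second lay at the 5′ end of Hoxc13 (chr15:102920640-102921403), between percentiles 69.3 and 87.3. The third lay 2.68 kb upstream of Hoxd1, between Hoxd3 and Hoxd1 (chr2:74759981-74760626), between percentiles 53.9 and 89.6. These 3 regions held the strongest Hox peak in 5 of the 6 lists. Another region, 0.771 kb beyond the 3′ end of Hoxb1 (chr11:96368710-96369340), was in 5 lists and absent from dHx High, the list with the lowest fitted background.

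The WT and dHx lists were then compared at each RFP level to ask what differed without the helix. At High RFP, 4 of 7 WT Hox peaks had no dHx peak (57.1%, 18.4 to 90.1; all peaks 43%) and 2 of 5 dHx peaks had no WT peak (40%, 5.27 to 85.3; all peaks 30.6%). At Middle RFP it was 7 of 10 (70%, 34.8 to 93.3; all peaks 43.9%) and 4 of 7 (57.1%, 18.4 to 90.1; all peaks 30.9%). At Negative RFP it was 11 of 27 (40.7%, 22.4 to 61.2; all peaks 28.8%) and 18 of 35 (51.4%, 34.0 to 68.6; all peaks 44.5%). Every interval held the share of the whole list, so no departure at the Hox genes was detectable at these counts. With lists of about equal length both Negative lists had 27 Hox peaks.

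Genes that regulate or assist Hox genes were counted from a list of 29, all found. Their peaks summed to 109, 102 and 124 in WT High, Middle and Negative and to 117, 106 and 146 in dHx. In WT 11 of the 29 had more peaks in Negative, 8 more in High and 10 equal numbers, and in dHx it was 15, 2 and 12. Of all genes with a peak in either list, 26.5% had more in WT Negative and 40% more in WT High, and in dHx 41.9% and 24%. Meis2, which encodes a TALE cofactor of HOX proteins, had 9, 10 and 15 in WT and 15, 11 and 21 in dHx. Cdx2, which encodes a caudal-type activator of Hox genes, had 3, 5 and 6 in WT and 3, 4 and 7 in dHx. Evx1, the homeobox gene beside HoxA, had 2, 3 and 5 in WT and 6, 3 and 8 in dHx. Rarb, a retinoic acid receptor gene, had 15, 17 and 9 in WT and 20, 18 and 16 in dHx, fewest in Negative in both genotypes. Each of these 29 had a peak in at least 1 list.

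Loci of other cell types varied between the gates too. The 5 node and notochord loci held 30, 30 and 16 peaks in WT High, Middle and Negative and 28, 30 and 21 in dHx, and the 5 definitive endoderm loci 29, 25 and 13 and 27, 30 and 17. The 5 nascent and posterior mesoderm loci held 10, 5 and 12 in WT and 7, 9 and 10 in dHx. Of these 5, 3 had more peaks in WT High than in WT Negative and 1 had more in Negative, Hand1, which was at 0 in both High lists and at 6 and 4 in the Negative lists. The 4 neural loci held 18, 7 and 19 in WT and 18, 13 and 19 in dHx. The 4 extraembryonic loci held 8, 7 and 6 in WT and 5, 8 and 13 in dHx. Of these, 3 had more in WT High than in WT Negative, and Tfap2c alone held 6 and 10 of the peaks in WT and dHx Negative. The 3 blood loci held 18, 13 and 7 in WT and 8, 10 and 17 in dHx, of which Runx1 held 15 in WT High and 12 in dHx Negative. T, a marker of node and streak, was at 0 in WT High, dHx High and dHx Middle, and Gata1, a blood marker, at 0 in WT Negative and all dHx lists. The part that cell composition had in the Hox counts was not tested.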

How the data were processed

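The 6 deposited lists (12 samples, 2 per group) use the mm10 build. STAR 2.5.2a and MACS2 are named, per the submitters' processing notes, while the sources used here give neither their roles nor settings. Every peak's name contains Pooled, so each list was read as 1 list per group. The deposited score is the authors' −log10 significance (p-value or q-value), inferred from its values and used only within a list, as a percentile, a minimum or for fitting the background. That background is the Poisson mean whose upper tail best gives the steps between the 40 lowest distinct scores.

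Rows with the same start and end were merged. Each peak was given to the nearest RefSeq protein-coding gene (GRCm38.p6, 21883 different symbols), with ties inside overlapping genes going to the shortest. Promoter windows and sequences are RefSeq's, on GRCm38.p6. Overlap needed 1 bp, and regions joined overlapping peaks of any list. Shares over all genes for sets of lists were added after the data were seen. Named were genes differing by 2 or more peaks in any of 7 contrasts, genes without a peak, the highest total per cluster, regions Negative-only in both genotypes, and the strongest or widest peaks. Regulators, motifs and other genes and regions were named after their values were seen, and the members and lists were chosen with earlier results of these data known. No test between groups was made. Python 3.11.15, pandas 2.3.3 and scipy 1.17.1 were used, and overlap and assignment were tested on simulated intervals.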

Additional observations from a re-analysis of the deposited data

Results flagged for a closer look

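Hoxd8 was the one listed gene of 14 with a High-to-Negative difference in both genotypes whose direction was opposite between them. It had 1 peak fewer in WT High than in WT Negative (High minus Negative -1) and 1 peak more in dHx High than in dHx Negative (High minus Negative 1). Across all genes with a difference in both genotypes, 40.1% went opposite ways. The 2 Hoxd8 peaks, in WT Negative and dHx High, did not overlap and stood at percentile 17.0 and percentile 19.0 of their lists. This difference was not tested.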

How the results depend on the processing

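No paired analysis was possible because each group is 1 list from pooled samples, and for the same reason no replicate could be left out. Each of the 7 contrasts, the counts per list and the region counts were recomputed under 7 alternatives. Under lists of about equal length, overlap of at least 50% of the shorter peak, a 10 kb limit, each deposited row counted, and overlapping genes all counted, the counts per list, the region counts and the one-list shares stayed within 1.5 times of their value or inside its interval, while 8 of 38 counts per cluster or of genes under equal length and 2 under the 10 kb limit did not. Of those 38, 27 moved with a score of at least 5 and 28 with every gene up to 100 kb away counted.

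With a score of at least 5, the Hox peaks numbered 4 (WT High), 5 (WT Middle), 10 (WT Negative), 3 (dHx High) and 15 (dHx Negative), with 24 regions, 18 of them in 1 list and 3 Negative-only in both genotypes. The share of dHx High Hox peaks with no dHx Negative peak and that with no WT High peak became 0%, and that of dHx Middle with no dHx Negative peak 60%. With each peak counted for every gene up to 100 kb away, the counts were 17, 24 and 46 in WT High, Middle and Negative and 21, 19 and 59 in dHx, with 92 regions, 5 in all 6 lists and 1 in High and Middle of both genotypes without Negative. In both settings the Negative list of each genotype held the most Hox peaks. Shares over all genes or all regions were not counted under either setting. The cause of these changes is the setting itself, which removes weak peaks or adds distant ones. With 5 to 10 Hox peaks per RFP-positive list, shares there have wide intervals, and a missing peak may lie just under a list's threshold.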
